A study of Mus musculus with 4 samples.

Results

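The replication-dependent histone genes encode the H1, H2A, H2B, H3 and H4 proteins that package newly copied DNA. They were taken here as all genes whose symbol starts with Hist1h, Hist2h, Hist3h or Hist4h, which gave 66 of the 27932 genes counted in any library, with no measured value used in the choice. The 66 were 6 H1, 18 H2A, 18 H2B, 11 H3 and 13 H4 genes, and all were listed in all 4 libraries. Cells of embryonic mouse kidneys at E14.5 had been profiled by Drop-seq, which catches single cells in droplets and reads the 3′ ends of their transcripts. There were 2 wildtype libraries and 2 libraries from mutants labelled -/- for Hoxa9, Hoxa10 and Hoxa11 and for Hoxd9, Hoxd10 and Hoxd11. All 4 came from a mixed strain background, given as mostly CD-1 and 129. The labels do not say how many embryos or litters a library came from, so the p-values below measure the spread between these libraries only.

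Histone synthesis is coupled to DNA replication, so that transcripts of this class accumulate in S phase and are degraded when replication ends. Their mRNAs are known for ending in a conserved stem-loop in place of a poly(A) tail. The stem-loop is bound by the stem-loop binding protein, which guides processing, translation and decay. Drop-seq primes on poly(A), so its counts for these genes come from transcripts or sites that the poly(T) primer could catch. In the fetal kidney, dividing cells include nephron progenitors, the early nephron structures they form, ureteric bud tips and stroma.

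The stem-loop is the shared feature of the class. The letters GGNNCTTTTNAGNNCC (N any base, transcript strand only), a form of the known histone stem-loop, were searched in the annotated transcripts and found for 42 of the 66 genes. Of all 141767 mouse transcripts, histone transcripts included, 124 or 0.0875% held them (GENCODE vM21, GRCm38), a share of transcripts and not of genes. By family these were 4 of 6 H1, 10 of 18 H2A, 10 of 18 H2B, 7 of 11 H3 and 11 of 13 H4 genes. In 15 of the 42 genes, AATAAA or ATTAAA also followed the stem-loop within the annotated transcript. The sites of 7 genes that the results below turn on are printed 5′ to 3′, with the 16 stem-loop letters in capitals and 5 letters on each side.
Hist1h2ao: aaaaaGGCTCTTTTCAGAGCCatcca
Hist1h3c: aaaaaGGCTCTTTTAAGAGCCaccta
Hist1h4i: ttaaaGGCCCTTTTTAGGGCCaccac
Hist1h1e: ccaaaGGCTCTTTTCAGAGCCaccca
Hist2h2aa2: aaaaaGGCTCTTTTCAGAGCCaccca
Hist3h2a: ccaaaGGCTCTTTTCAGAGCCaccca
Hist3h2ba: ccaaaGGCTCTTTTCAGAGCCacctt
The site of Hist3h2ba and that of Hist1h2ao carry the same 16 letters, a form shared by 24 of the 42 genes. No match means only that these letters are not in the annotated transcript.

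Of the 66 genes, 55 lie on chromosome 13, 8 on chromosome 3, 2 on chromosome 11 and 1 on chromosome 6. Hist1h2al, annotated as a processed pseudogene, lies on chromosome 13 apart from the clusters, at chr13:51202727-51203065. Over the kept cells, 63 of the 66 genes had at least 100 counts, and Hist4h4 (59), Hist2h4 (53) and Hist1h1t (25) had fewer.

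The libraries held 1061 to 6428 barcodes and 3572346 to 24834658 counts. After filtering, 1850 and 4780 wildtype cells and 785 and 4308 mutant cells were kept, with median counts per cell of 3597, 3467, 2385 and 3036.5 in that order. Of the kept barcode sequences, 2 occurred in 2 libraries. All 6 targeted Hox genes had counts in all 4 libraries (for Hoxa11, 181 and 1455 in wildtype and 85 and 716 in mutant). The labels do not say which sequence the alleles remove, so these 3′ counts check nothing about the genotype labels. Values below are given in the order wildtype 1, wildtype 2, mutant 1 and mutant 2. Levels are in CPM, counts of the summed kept cells scaled to a total of 1000000, a scale of 3′ tags per gene that is not divided by length.

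Summed over all 66 genes, histone counts were 7800, 4672, 10529 and 10996 CPM, or 0.780%, 0.467%, 1.05% and 1.10% of all counts. Both mutant libraries lay above both wildtype libraries, and the wildtype libraries differed from each other by more than the mutant libraries did. The H2A genes, whose proteins pair with H2B in the nucleosome, held most of the counts, at 7158, 4108, 9865 and 9699 CPM. The H2B genes summed to 270, 287, 319 and 224 CPM. The H3 genes gave 118, 120, 168 and 157 CPM, and the H4 genes 99.0, 107, 102 and 92.7 CPM. The H2B, H3 and H4 sums ranged less between libraries than the H2A sums. The H1 linker histone genes, whose proteins bind the DNA between nucleosomes, summed to 156, 50.7, 74.5 and 824 CPM. Mutant 2 stood apart for H1.

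The H1 value of mutant 2 was shared by 4 genes. Hist1h1e gave 66.6, 19.4, 22.9 and 347 CPM. Hist1h1d gave 25, 9.59, 17.3 and 169 CPM, and Hist1h1b gave 18.3, 7.60, 6.93 and 160 CPM. Hist1h1c gave 35.4, 10.6, 25.3 and 128 CPM. All 4 genes were higher in mutant 2 than in every other library, and mutant 1 lay below wildtype 1. Of 4262 genes with at least 50 CPM in any library, 6 exceeded 3 times the next highest library in mutant 2, and 4 of these 6 were these H1 genes. The same measure picked 4, 13 and 10 genes in wildtype 1, wildtype 2 and mutant 1, with 0 histone genes among them. Hist1h1e (chr13:23620629-23622558, minus strand) overlaps the annotated model of Hist1h2be on the same strand, so reads there could be assigned to either gene.

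**Figure D1:**
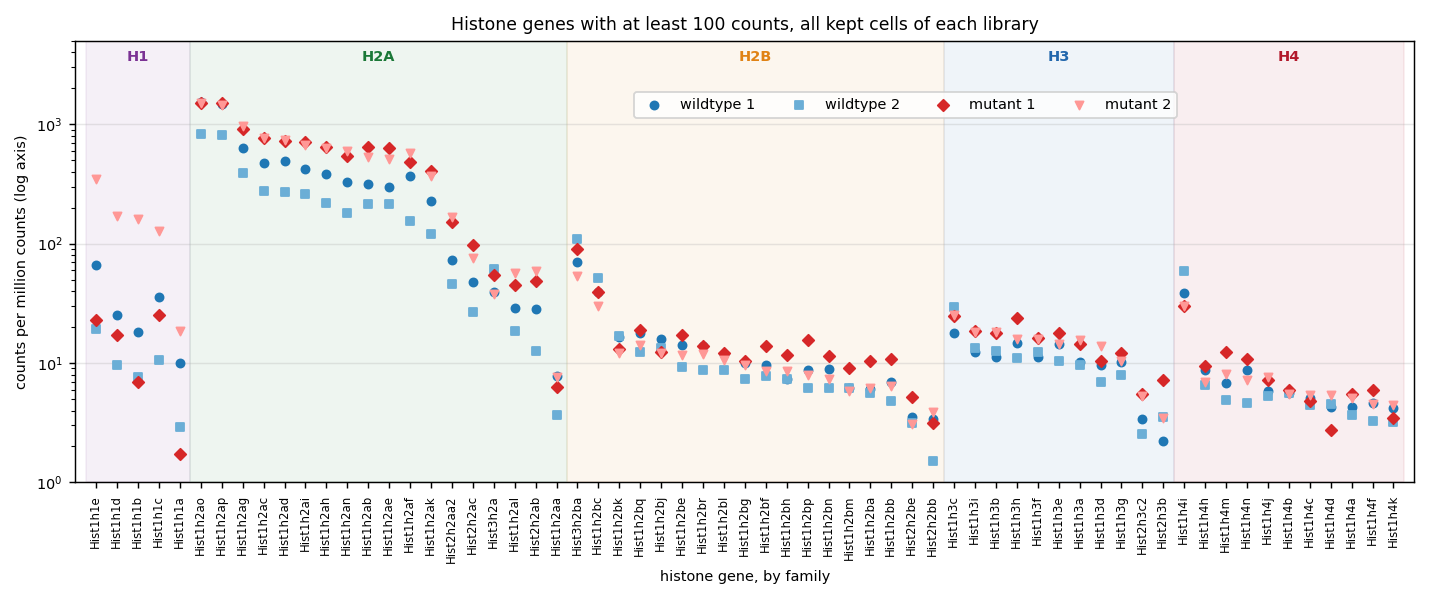
Level of each histone gene, in CPM on a log axis, in each of the 4 libraries, grouped by family. Mutant 2 stands above the other libraries for the H1 genes other than Hist1h1t, as for Hist1h1e at 347 CPM against 19.4 to 66.6 CPM.

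Among H2A genes, Hist1h2ao (chr13:21810465-21810944, plus strand) had the most counts of the class, with 1524, 830, 1497 and 1493 CPM. Hist1h2ap (chr13:21833026-21833507, minus strand) gave 1478, 815, 1503 and 1444 CPM. Wildtype 2 was the low library for both genes, and wildtype 1 lay level with the mutants. The other H2A genes had both mutants above both wildtype libraries, as Hist1h2ag with 635, 387, 920 and 973 CPM. The exceptions were Hist1h2aa (7.83, 3.67, 6.24 and 7.71 CPM) and Hist3h2a (39.4, 61.4, 55.1 and 37.6 CPM). The counts of H2A genes may not be separate measurements. In 3964 cells with at least 4 counts of Hist1h2ao and Hist1h2ap together, 99.6% had counts of both genes. The split within cells varied 0.513 times as much as a binomial split of independent counts would. Over 153 H2A pairs this ratio had a median of 0.973, and 89 pairs lay below 1. The 5 H3 pairs with enough counts gave 0.454 to 0.494, and the 29 H2B pairs gave 1.03 to 2.83. The 3 H4 pairs gave 0.794 to 1.03, with 2 below 1. Of 10 H1 pairs 3 lay below 1, with 0.415 for Hist1h1e and Hist1h1d, 0.517 for Hist1h1d and Hist1h1c and 0.629 for Hist1h1e and Hist1h1c. Of the 50-letter stretches in the last 300 bases of a transcript, a median of 67.9% for H2A genes, 54.6% for H3, 38.6% for H4, 33.3% for H2B and 0% for H1 genes also occurred in another gene's transcript. A ratio below 1 thus also occurred among H1 genes, whose median shared stretch was 0%. How reads that fit several genes were counted is not given in the sources used here. Values of single H1, H2A, H3 and H4 genes are therefore uncertain.

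Cells were next classed by cycling genes, with lists that hold no histone gene. Cells with at least 1500 counts were thinned to that number and counted for the genes of each list. The S list holds 31 genes of DNA replication, with Pcna, the sliding clamp of DNA polymerase. The G2M list holds 37 genes of mitosis, with Mki67, a marker of dividing cells. Cells with at most 1 count of both lists formed the low class, with 125, 237, 123 and 471 cells. Cells with at least 3 counts of a list formed the S class (606, 1407, 119 and 960 cells) or the G2M class (599, 1476, 208 and 1146 cells), by the larger list. Cells between these limits (193, 408, 92 and 572 cells) formed a between class that was not tested. Cells under 1500 counts (327, 1252, 243 and 1159 cells) were not classed, and held 4484, 4595, 6026 and 6837 CPM of histone counts. Histone genes were higher in both cycling classes, and highest in the G2M class. The low class held 854, 1167, 1556 and 1696 CPM of histone counts, the S class 6799, 4513, 11371 and 10461 CPM, and the G2M class 10848, 5859, 17616 and 17349 CPM. In every library the order was low, S, G2M. Median counts per cell were 3296, 4400 and 5068 in these classes, and the part of cell size in the difference was not tested.

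**Figure D2:**
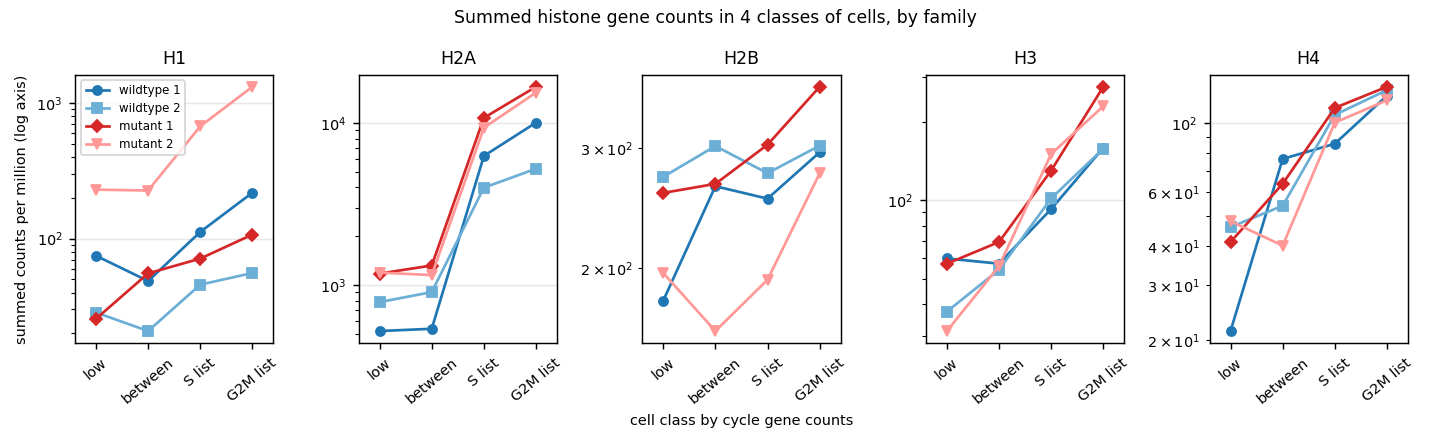
Summed level of each histone family, in CPM on log axes, in the low, between, S and G2M classes of each library. H2A runs from 519 to 1191 CPM in the low class to 5215 to 16735 CPM in the G2M class. The H2B sum moves least. It includes Hist3h2ba, which is lower in the G2M class, while most H2B genes are higher there.

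Between the G2M and low classes, 63 of the 66 genes passed the filter on low counts, and 55 were higher and 2 lower in the G2M class (edgeR's quasi-likelihood test, library as block, Benjamini-Hochberg adjusted over all genes). Of all 13251 genes tested, 34.1% passed, 19.4% as higher and 14.7% as lower. The median log2 difference was 2.27 over the histone genes and -0.01 over all genes. By family, 5 of 5 H1 genes, 17 of 18 H2A genes, 14 of 18 H2B genes, 11 of 11 H3 genes and 8 of 11 H4 genes were higher. The family medians were 2.53, 3.83, 1.88, 2.32 and 1.5 on the log2 scale.

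Hist1h2ao rose from 66.2, 114, 148 and 159 CPM in the low class to 2128, 1051, 2569 and 2385 CPM in the G2M class. This was a log2 difference of 4.06 ± 0.21 (SE, edgeR adjusted p = 1.12e-05). Hist1h3c, an H3 gene, went from 2.13, 3.93, 5.90 and 5.05 CPM to 26.5, 40.3, 41.6 and 39.7 CPM, higher in the G2M class in each library (3.24 ± 0.24, edgeR adjusted p = 1.25e-11). Hist1h4i, an H4 gene, went from 8.54, 19.6, 9.84 and 13.5 CPM to 44.6, 71.9, 42.5 and 39.9 CPM (1.96 ± 0.17, edgeR adjusted p = 2.52e-10). For each of these genes the lowest library of the G2M class lay above the highest of the low class. The low class values of Hist1h3c rest on few counts per library.

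The H1 genes depended on the library, and their lowest low class values rest on few counts. Hist1h1e went from 32.0, 8.84, 3.94 and 112 CPM to 97.0, 20.2, 37.4 and 555 CPM, higher in the G2M class in each library (2.30 ± 0.20, edgeR adjusted p = 2.82e-06). Hist1h1b went from 6.4, 6.88, 1.97 and 15.7 CPM to 23.9, 7.72, 7.64 and 262 CPM. Its difference of 3.67 ± 0.41 (edgeR adjusted p = 0.000112) was 1.18 without mutant 2, with an adjusted p of 0.0511.

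The histone genes of chromosome 11 went the other way. Hist3h2ba, an H2B gene, had 89.7, 126, 169 and 112 CPM in the low class and 64.3, 101, 64.5 and 39.4 CPM in the G2M class. Its log2 difference was -0.80 ± 0.22 (edgeR adjusted p = 0.0267), and the call was lost without wildtype 1 (adjusted p = 0.0819) or mutant 1 (0.137). Hist3h2a, an H2A gene, had 57.6, 74.7, 88.5 and 80.8 CPM in the low class and 37.4, 62.7, 36.5 and 28.3 CPM in the G2M class (-0.77 ± 0.17, edgeR adjusted p = 0.00137). Both genes were lower in the G2M class in every library. The classes pool the cell lineages described below, whose shares of low class cells differed. The part of lineage in these differences was not tested. Hist1h2bc, an H2B gene of chromosome 13, had 32.0, 79.6, 29.5 and 25.2 CPM in the low class and 36.4, 46.5, 40.8 and 34.6 CPM in the G2M class, with no difference detected (0.04 ± 0.19).

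Between the S and low classes, 48 of 63 genes were higher and 1 was lower, where 28.5% of all genes passed, 17.5% as higher and 11% as lower. The median log2 difference was 1.64. Hist1h2ao reached 1357, 822, 1623 and 1432 CPM in the S class (3.44 ± 0.21), and Hist3h2a was the gene that was lower (-0.89 ± 0.17, edgeR adjusted p = 0.000639). Hist1h1b gave 2.97 ± 0.44, which fell to 0.79 without mutant 2 (adjusted p = 0.258).

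The S and G2M classes were then compared directly. Of 63 genes, 0 were higher and 26 lower in the S class by edgeR, 44 had an unadjusted p under 0.05, and DESeq2 called 12 in either direction. Without wildtype 1 the count was 17 and without mutant 2 it was 10. Of all genes 6.25% passed, 2.69% as higher and 3.55% as lower. The 26 were 4 H1, 13 H2A, 2 H2B, 6 H3 and 1 H4 genes, and the median log2 difference over all 63 was -0.60. Hist1h3c gave -0.88 ± 0.12 (edgeR adjusted p = 4.11e-06) and Hist1h1e -0.88 ± 0.14 (edgeR adjusted p = 0.002). Pcna and Mki67 helped define the classes, and their differences of 0.95 and -1.89 are given as a description. A class is a range of list counts and not a measured cycle phase.

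**Figure D3:**
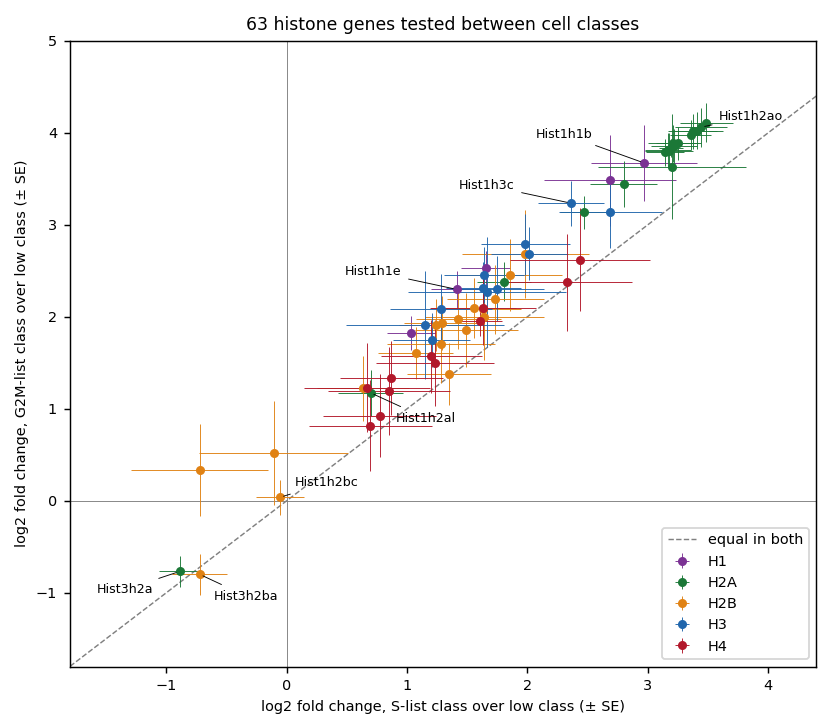
Log2 difference of each tested histone gene between the S and low classes (x axis) and the G2M and low classes (y axis), coloured by family. H2A genes such as Hist1h2ao (3.44 and 4.06) lie at the upper right, and Hist3h2a (-0.89 and -0.77) and Hist3h2ba (-0.72 and -0.80) lie below 0 on both axes.

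Cells were also split by Pcna and Mki67 alone, which are genes of the lists that made the classes. Among cells thinned to 1500 counts, those with no count of Pcna or Mki67 had a mean of 4.51, 4.83, 7.86 and 6.91 histone counts. Cells with Pcna only had 10.9, 7.85, 25 and 14.1, and cells with Mki67 only had 12.3, 7.59, 25 and 21.6. Cells with both (138, 195, 21 and 287 cells) had 20.6, 12, 32.4 and 35.5. In each library the cells with both genes were highest and the cells with neither lowest.

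**Figure D4:**
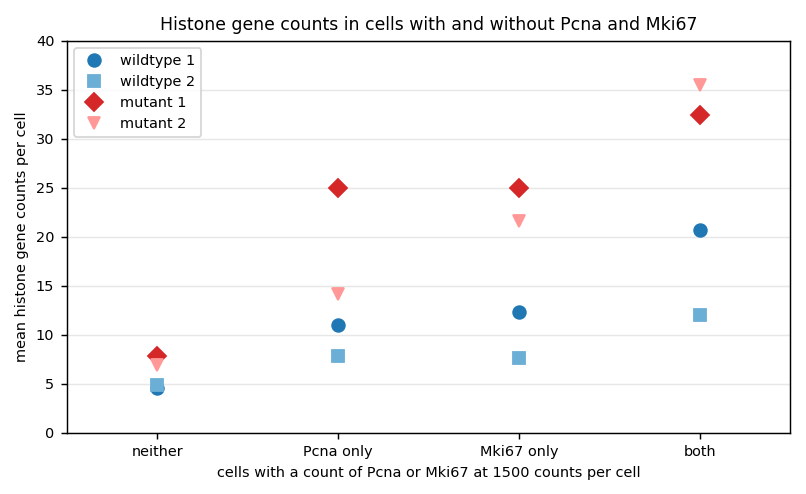
Mean histone counts per cell, at 1500 counts per cell, in cells with neither, only Pcna, only Mki67 or both, for each library. Means rise from 4.51 to 7.86 in cells with neither to 12 to 35.5 in cells with both.

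Over the cells of a library, Spearman's rho of the histone sum with the S list was 0.350, 0.342, 0.386 and 0.456, and with the G2M list 0.492, 0.463, 0.507 and 0.550 (1523, 3528, 542 and 3149 cells, which share their library and were thinned to one depth). With single genes rho was lower, at 0.223, 0.196, 0.250 and 0.229 for Pcna and 0.242, 0.162, 0.332 and 0.379 for Mki67. Histone counts were concentrated in few cells. The 10% of cells with the most held 54.5%, 39.1%, 51.5% and 47.3% of them, and the highest single cells had 130, 61, 128 and 123 of their 1500 counts from histone genes. At that depth, a histone count was present in 54.4%, 66.7%, 68.3% and 75.8% of low class cells and in 89.1%, 92.5%, 93.3% and 94.0% of G2M class cells. Unthinned, the first of these shares was 73.6%. No cell type that lacks histone genes was available as a measure of free RNA, and its part in the low class share was not tested.

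Genes that handle histones were followed over the same classes. Of 14 tested genes of histone mRNA processing and decay, 8 were higher in the S class and 9 in the G2M class than in the low class. Slbp, the stem-loop binding protein, was higher by 1.40 in the S class and 0.90 in the G2M class, and by 0.50 in the S over the G2M class. Eri1, an exonuclease that trims the stem-loop, was higher by 1.58 and 1.34. Of 15 histone chaperones, 14 were higher in each class. Chaf1a, a subunit of the assembly factor that loads histones behind the replication fork, gave 2.87 and 2.30. Of 11 histone genes listed as replication-independent, 8 and 10 were higher. H2afx, the variant phosphorylated at DNA breaks, gave 2.06 and 3.20. Cenpa, the centromeric H3, gave 3.8 in the G2M class. Unlike Slbp, H2afx was lower in the S than in the G2M class, with a log2 difference of -1.14.

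The promoters of 59 of the 66 genes matched RefSeq entries (GRCm38.p6, 250 bases before to 50 after the start, 60 promoters). Motifs were searched on both strands. CCAAT was in 85% of them against 37.4% of 32851 promoters, TATAAA in 56.7% against 13.6%, and the octamer ATTTGCAT in 23.3% against 1.74%. The octamer was in 7 of 16 H2A and 7 of 17 H2B promoters and in 0 of the other families. CCAAT was in all H1, H2A, H2B and H3 promoters and in 3 of 12 H4 promoters. Of the histone promoters, 9 pairs overlapped, each an H2A with an H2B gene. In 3 of these pairs both promoters held the octamer, so a shared site may be counted in both families. The promoters of a gene that was higher and of a gene that was lower in the G2M than in the low class are printed 5′ to 3′ on the gene's strand, with the motifs, in either orientation, in capitals: Hist1h2ap at chr13:21833426-21833725 (minus strand) and Hist3h2ba at chr11:58948661-58948960 (plus strand).
Hist1h2ap: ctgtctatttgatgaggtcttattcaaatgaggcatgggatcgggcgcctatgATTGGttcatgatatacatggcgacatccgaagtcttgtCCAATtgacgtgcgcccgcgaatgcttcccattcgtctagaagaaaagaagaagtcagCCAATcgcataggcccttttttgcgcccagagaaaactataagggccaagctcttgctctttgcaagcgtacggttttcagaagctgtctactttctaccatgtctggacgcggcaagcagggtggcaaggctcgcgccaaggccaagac
Hist3h2ba: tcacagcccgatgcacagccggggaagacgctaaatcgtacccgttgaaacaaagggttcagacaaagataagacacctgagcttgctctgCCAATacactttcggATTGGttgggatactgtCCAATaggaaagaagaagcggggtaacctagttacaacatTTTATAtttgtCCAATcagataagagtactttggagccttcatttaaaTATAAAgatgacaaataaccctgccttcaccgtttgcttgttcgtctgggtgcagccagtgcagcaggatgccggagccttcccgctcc
The Hist1h2ap promoter holds 3 CCAAT boxes and that of Hist3h2ba 4 with TATAAA, and a match is a description and not a bound site.

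Levels across lineages were compared in cells gated by marker counts, with no histone gene among the markers. A gate took cells with at least 3 counts from at least 2 markers of a lineage and at least 2 times the counts of every other list. Early nephron cells (markers such as Lhx1, Wnt4 and Pax8) had the highest histone level of the 5 lineages with at least 25 cells in every library in wildtype 2 and both mutants. All histone genes together gave 8844, 5897, 15950 and 16279 CPM there. Stroma gave 6459, 4182, 13058 and 11103 CPM, and endothelium 7248, 4533, 11415 and 9966 CPM. Ureteric bud and collecting duct gave 10139, 3760, 3990 and 9890 CPM, and was highest in wildtype 1. Loop and distal tubule gave 7893, 3920, 4544 and 5245 CPM. Wildtype 2 was the lowest library in each of these lineages. Nephron progenitors, not among the 5, gave 8558 and 4773 CPM in wildtype and 17947 CPM in mutant 2, from 17 cells. The mutant 2 value lay above that of its early nephron cells.

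**Figure D5:**
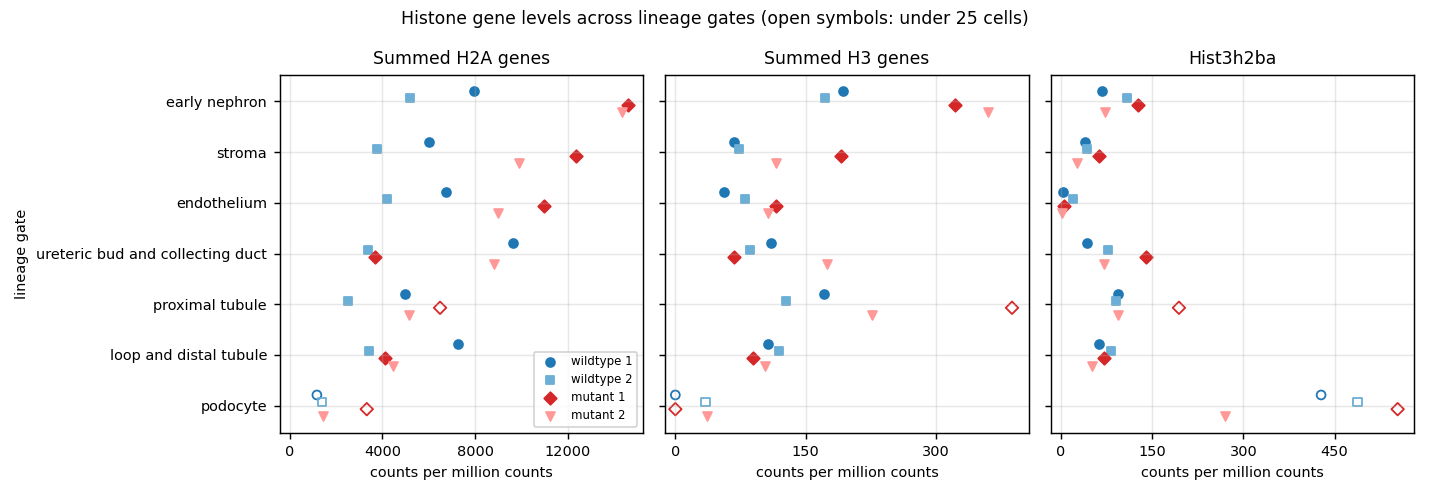
Summed H2A, summed H3 and Hist3h2ba levels, in CPM, in 7 lineage gates and 4 libraries, with open symbols where a gate holds under 25 cells. H3 is highest in the early nephron gate among the tested lineages in every library (173 to 360 CPM), and Hist3h2ba is lowest in endothelium (2.26 to 20.4 CPM) and highest in podocytes (270 to 554 CPM).

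Each lineage was tested against the mean of the other 4, with library as block. In early nephron cells 33 of 54 tested genes were higher and 0 lower by edgeR, 45 had an unadjusted p under 0.05, and DESeq2 called 32. Of all 11160 genes, 32.6% passed, 16.7% as higher. The 33 were 5 of 5 H1, 1 of 18 H2A, 14 of 16 H2B, 9 of 9 H3 and 4 of 6 H4 genes, and the median log2 difference over the 54 was 0.87. Hist1h3c had 31.9, 47.8, 49.0 and 59.7 CPM in early nephron cells and 9.01, 19.1, 25.7 and 19.3 CPM in stroma (1.29 ± 0.19 against the other lineages, edgeR adjusted p = 7.63e-07). Hist1h2bm, an H2B gene, had 13.7, 9.47, 35.0 and 12.8 CPM in early nephron cells and 3.38, 2.82, 7.33 and 3.95 CPM in stroma (1.57 ± 0.31, edgeR adjusted p = 0.000113). Hist1h1e gave 0.85 ± 0.17 and Hist1h4i 0.92 ± 0.17.

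The share of cycling cells differed between gates. Of early nephron cells with at least 1500 counts, the G2M class made up 53.8%, 51.5%, 81.5% (of 27 cells) and 46.7%. On the same base it made up 35.9%, 38.7%, 38.1% and 34.6% of stroma and 55.9%, 55.5%, 35% and 43.9% of endothelium. Endothelium thus had the larger share in both wildtype libraries. In the same test 23 of 31 S list genes and 22 of 37 G2M list genes were higher. Within the G2M class alone, the summed histone level of early nephron cells was 9272, 6011, 17370 and 19207 CPM, against 11042, 6090, 20904 and 19131 CPM in stroma. There early nephron cells were the highest of the 5 lineages in mutant 2 only. In that class 12 of 50 histone genes were higher where 11.3% of all genes were, with a median of 0.47. Within wildtype libraries alone 16 of 54 were higher, with a median of 0.52, where 14.3% of all genes were. That fit also held the nephron progenitor, proximal tubule and immune gates, so the mean of the other lineages differed too. Without mutant 2, 17 passed.

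The other lineages had few calls, against large shares of all genes. Stroma had 3 higher (Hist1h1b 0.70, Hist1h4i 0.62 and Hist1h2bc 0.54) where 43.9% of all genes passed. Within wildtype libraries alone, 1 gene was higher and 8 were lower in stroma, where 29.8% of all genes passed, and Hist1h1b lost its call without mutant 2 (0.24). The stroma count was 5 without wildtype 1 and 9 without mutant 1. Ureteric bud and collecting duct had 1 higher (Hist3h2ba, 0.77) and 2 lower (Hist1h1c, -0.72, and Hist1h4j, -1.24) where 27.7% passed. Within wildtype libraries alone 2 were lower, Hist1h1c and Hist1h2bc, where 21.9% of all genes passed. Hist3h2ba did not pass there (0.26, edgeR adjusted p = 0.381). The wildtype-only fits set a lineage against more gates. These included nephron progenitors, where Hist3h2ba had 126 and 193 CPM in wildtype, so the contrast itself differed. Loop and distal tubule had 2 higher (Hist3h2ba, 0.75, and Hist3h2a, 0.79) and 5 lower where 30.1% passed, and the S list had 25 of 31 genes lower there. The 5 were Hist1h1b (-1.84), Hist1h1a (-1.54), Hist2h2ab (-1.09), Hist1h4i (-0.81) and Hist1h1e (-0.74). Within wildtype libraries alone 0 of 54 passed in this lineage by edgeR, where 16.1% of all genes did, with 3 at an unadjusted p under 0.05, and without mutant 2 the calls of Hist1h1b, Hist1h4i and Hist3h2a were lost. Hist1h4i also lost its call without wildtype 1, where the count of the lineage was 11.

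Endothelium had 2 higher (Hist1h1a, 1.04, and Hist1h1b, 0.50) and 4 lower where 43.6% of all genes passed. Hist3h2ba, the largest of these, had 3.02, 20.4, 4.66 and 2.26 CPM in endothelium, from 2, 23, 1 and 5 counts. It had 40, 42.1, 63.1 and 26.5 CPM in stroma and 67.3, 109, 126 and 72.0 CPM in early nephron cells. Each library's endothelial value lay below its value in the other 4 lineages (-2.79 ± 0.29, edgeR adjusted p = 3.69e-09). Hist3h2a (-0.88), Hist1h2bm (-1.42) and Hist1h2bc (-0.49) were also lower, while 18 of 37 G2M list genes were higher in endothelium. Hist1h2bm lost its call without wildtype 2 (adjusted p = 0.0711), and the count of 6 was 3 without wildtype 1 and 2 without mutant 2.

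Hist3h2ba had its highest levels in small gates that were not tested. In podocyte cells (14, 11, 1 and 83 cells) it gave 428, 487, 554 and 270 CPM, from 15, 14, 2 and 67 counts, and the exact 95% Poisson interval in mutant 2 was 209 to 343 CPM, for counting error only. In the same cells H2A summed to 1170, 1393, 3323 and 1437 CPM, the lowest of the 7 gates drawn, and H3 to 0, 34.8, 0 and 36.2 CPM. Neural and glial cells, with 4, 6 and 34 cells in wildtype 2 and the mutants, gave 166, 562 and 479 CPM. In nephron progenitors, marked by genes such as Six2 and Cited1, Hist3h2ba gave 126 and 193 CPM in wildtype and 84.8 CPM in mutant 2, from 17 cells, while mutant 1 had 0 gated cells. Within the wildtype libraries 5 of 54 histone genes were higher in progenitors where 28.3% of all genes passed, led by Hist3h2ba at 1.97.

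Between genotypes, over all kept cells, 1 of 65 tested genes differed. This was the H2A gene Hist2h2aa2 (chr3:96239749-96240276, minus strand), with 73.5, 46.0, 152 and 168 CPM. Both mutants lay above both wildtype libraries (1.32 ± 0.34, edgeR adjusted p = 0.0368). Of all genes 1.33% passed, and 15 histone genes had an unadjusted p under 0.05. The call was lost without wildtype 2 (adjusted p = 0.322), mutant 1 (0.0886) or mutant 2 (0.0917), with no filter on low counts (0.141) and with no mitochondrial limit (0.105). The count was 2 without wildtype 1 and 4 without mutant 1. The median over the 65 genes was 0.33. Median log2 differences were 2.01 for H1, 0.96 for H2A, 0.10 for H2B, 0.45 for H3 and 0.25 for H4. Hist1h1e at 2.01 ± 1.79 and Hist1h1b at 2.60 ± 1.89 did not pass, and without mutant 2 they were -0.91 and -0.90. More mutant barcodes were left out for mitochondrial counts (208 of 1061 and 1871 of 6428) than wildtype ones (164 of 2113 and 502 of 5542), and the part of cell quality in this comparison was not tested.

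Within the cycle classes, the genes that passed between genotypes were H2A genes. In the G2M class 4 of 64 genes were higher in the mutants, where 1.07% of all genes passed, 0.782% as higher. Hist2h2aa2 had 101, 53.7, 250 and 258 CPM there (1.70 ± 0.34, edgeR adjusted p = 0.0113). Hist2h2ab had 36.0, 15.4, 86.6 and 95.3 CPM (1.82 ± 0.38) and Hist2h2ac 65.0, 33.0, 162 and 124 CPM (1.54 ± 0.36). These H2A genes are all in the chromosome 3 cluster, but the order of the libraries was not particular to it. The H2A sum, held mostly by chromosome 13 genes, was 10053, 5215, 16735 and 15410 CPM in this class. Hist1h2al, the processed pseudogene, had 34.1, 19.3, 62.8 and 84.9 CPM (1.45 ± 0.36). For each gene both mutants exceeded both wildtype libraries, and each lost its call without wildtype 2. Hist1h2al also lost its call without mutant 2 (adjusted p = 0.153) and Hist2h2ac without mutant 1 (0.199), where the count rose to 8. In the S class Hist2h2aa2 was the 1 of 61 genes that passed, with 60.7, 44.1, 168 and 164 CPM (1.62 ± 0.34, edgeR adjusted p = 0.018), where 0.829% of all genes did, and it lost this call without wildtype 2 (0.11), with no mitochondrial limit (0.0779), on thinned counts (0.207) and with the replicate block (0.0836). The S class count was 2 without wildtype 1 and 5 without either mutant library. In the low class 0 of 21 passed by edgeR and by DESeq2, 7 had an unadjusted p under 0.05, and 0.0564% of all genes passed.

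Within lineages, Hist2h2aa2 was also the 1 of 57 genes that passed in stroma, where 0.238% of all genes did. It had 56.9, 44.6, 175 and 169 CPM there (1.79 ± 0.33, edgeR adjusted p = 0.0445), and the call held without each library in turn but was lost with no mitochondrial limit (adjusted p = 0.0623). The stroma count was 5 without wildtype 1, 6 without mutant 1 and 16 without mutant 2. In early nephron cells 0 of 58 genes passed by edgeR and DESeq2, with 22 at an unadjusted p under 0.05, a median of 0.87 and 0% of all genes passing. In endothelium these were 0 of 30, 15, 1.12 and 0.12%. In loop and distal tubule they were 0 of 25, 3, -0.03 and 0%, and in ureteric bud and collecting duct 0 of 28, 1, 0.15 and 0.317%. Without wildtype 1, 4 genes passed in early nephron cells, and without mutant 2, 5 passed in endothelium. The difference between lineages in the genotype effect was not tested.

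The class difference itself was compared between genotypes by an interaction term for S against low, and 3 of 49 genes passed where 0.995% of all genes did. Hist1h1b (2.81 ± 0.68) and Hist2h2aa2 (1.22 ± 0.34) had the larger S over low difference in mutants, and Hist3h2ba the lower (-1.11 ± 0.24). The classes pool lineages whose cell numbers differed between genotypes, with 312, 794, 0 and 17 gated nephron progenitors. The part of lineage in these differences was not tested. DESeq2 called 0, and all 3 calls were lost without wildtype 2 or mutant 2. That of Hist2h2aa2 was also lost without wildtype 1 or mutant 1, and the count without wildtype 1 was 6. The S list itself had a median genotype difference of -0.59 over all cells with 0 of 31 genes passing by edgeR, and Pcna had 495, 324, 173 and 270 CPM and Mki67 261, 147, 206 and 404 CPM. Replication-independent histone genes summed to 6003, 7460, 5517 and 5548 CPM, so that both mutants lay below both wildtype libraries, the opposite order to the replication-dependent genes.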

How the data were processed

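Single-cell 3′ transcript counts were measured in 2 wildtype and 2 mutant libraries. The authors deposited raw counts per gene and barcode, 1 table per library, with every value whole and no normalization. Per the submitters' processing notes, Bowtie2 2.2.7 and mm10 were used. The labels state neither the annotation, nor strand, nor the collapse of molecular identifiers, and intervals cover counting error only.

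Kept barcodes had at least 500 genes and at most 10% mitochondrial counts. In each library the top 5% by Scrublet doublet score were also removed, because the tool's own threshold marked 16 in all. This left 11723 of 15144 barcodes, with 2745 removed for mitochondrial counts and 676 for doublet score. Cells with a haemoglobin share of at least 10% were called erythroid and entered no other gate. A floor of 3 counts equals 0.331, 0.133, 1.04 and 0.175 CPM over all kept cells of the 4 libraries. It is a higher CPM in a class or gate, which holds fewer counts.

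Raw counts were added up per library over all cells, a lineage gate or a cycle class, since a cell is no replicate. The sums were tested over all genes with edgeR's robust quasi-likelihood test (version 4.0.16, R 4.3.3, with TMM scaling and filterByExpr), Benjamini-Hochberg adjusted at 0.05. The SE is the log2 difference divided by the root of the test's F. Library was a block between classes and lineages. Promoters came from RefSeq. Transcripts and positions came from GENCODE vM21 (GRCm38, the build called mm10 in the notes). Analyses ran in Python 3.11.15 with scanpy 1.11.5, pandas 2.3.3, scipy 1.17.1, numpy 2.4.6 and matplotlib 3.10.9. The fits were tested on simulated data.

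The histone genes, lists, marker gates and tests were chosen with earlier results of these data known. Genes with at least 100 counts were open to naming, as were those past a test, and up to 4 genes of a list. Of 17 genes listed for histone mRNA processing, 15 were matched. Alternatives were DESeq2 1.42.0, all genes unfiltered, a replicate block, 1 library left out at a time, and other gates, depths, class thresholds and cell filters. Fits with wildtype libraries only, with the G2M class only and without barcodes over 50000 counts were added after the data were seen. The wildtype-only fit held every lineage gate with at least 25 cells in both wildtype libraries. Its lineage contrasts were therefore against a mean over more gates than in the main fit.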

Additional observations from a re-analysis of the deposited data

Results flagged for a closer look

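In the interaction test of the S against low class difference between genotypes, 3 genes passed. Hist1h1b had a mutant minus wildtype value of 2.81, Hist2h2aa2 1.22 and Hist3h2ba -1.11 on the log2 scale. The classes pool lineages whose cell numbers differed between genotypes, and the part of lineage was not tested.

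In 2 further genes every library of one genotype moved one way and every library of the other the opposite way, and the difference was not tested. With 10 CPM added, the S over low log2 difference of Hist1h2al was -0.27 and -0.04 in wildtype and 0.36 and 0.80 in mutant, a mean difference of 0.73. That of Hist2h2be was 0.29 and 0.01 in wildtype and -0.67 and -0.36 in mutant, a mean difference of -0.66.

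The barcodes left out of all comparisons also held histone counts. Those over the mitochondrial limit had 6348 and 4964 CPM in mutant 1 and mutant 2, against 3397 and 4485 CPM in the wildtype libraries. Those with the highest doublet scores had 11938 and 10576 CPM in the mutants, against 6422 and 4936 CPM in the wildtype libraries.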

How the results depend on the processing

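The G2M against low count of 57 genes stayed within 1.5 times under all 15 alternatives (44 to 56 without 1 library). The S against low count of 49 was 31 on thinned counts and 35 to 50 without 1 library. The S against G2M count of 26 was 12 with DESeq2 or thinning to 1000 counts, 13 with classes from 5 counts and 10 to 21 without 1 library. The interaction count of 3 was 0 with DESeq2, thinning to 2500, 1000 genes per cell, no doublet step or no barcode over 50000 counts, 1 on thinned counts or with no mitochondrial limit, and 0 to 6 without 1 library.

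Lineage counts moved as follows, without 1 library last. Early nephron, 33: 16 in wildtype only, 12 in the G2M class, 17 to 38. Loop and distal tubule, 7: 16 with DESeq2, 0 in wildtype only, 1 in the low class, 11 with no barcode over 50000, 1 to 11. Ureteric bud and collecting duct, 3: 7 with no filter, 1 in either class alone, 5 with a gate of 5 or no mitochondrial limit, 9 with 1000 genes, 2 to 4. Stroma, 3: 5 with no filter or a gate of 5, 9 in wildtype only, 7 in the G2M class, 6 with 1000 genes or no mitochondrial limit, 3 to 9. Endothelium, 6: 1 in the low class, 2 with a gate of 5, 2 to 7.

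Genotype counts moved in the same way. All cells, 1: 3 with the replicate block, 0 with no mitochondrial limit, 0 to 4. Early nephron, 0: 2 with no filter, 0 to 4. Loop and distal tubule, 0: 0 to 2. Ureteric bud, 0: 1 with the replicate block or no filter, 0 to 4. Stroma, 1: 3 with the block, 10 with DESeq2, 15 with no filter, 0 with no mitochondrial limit, 1 to 16. Endothelium, 0: 0 to 5. Low class, 0: 0 to 2. S class, 1: 0 with the block, thinned counts or no mitochondrial limit, 4 with no filter, 2 with classes from 5, 0 to 5. G2M class, 4: 7 with no filter, 2 with thinning to 2500, thinned counts, 1000 genes, no doublet step or no barcode over 50000, 1 with no mitochondrial limit, 0 to 8.

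Without mutant 2, Hist1h1e and Hist1h1b reversed over all cells (-0.91 and -0.90). Over the libraries left out in turn they ranged to 2.98 and 3.51, and both passed without mutant 1 (2.90 and 3.51). The mutant mean of summed counts, 10762 CPM, was 11219 with 1000 genes and 10297 with no mitochondrial limit. The causes were not tested.

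The replicate numbers are not known to pair the libraries (r = 0.0862 over 15746 genes between same-numbered libraries), and the block took Hist2h2aa2 in the S class to an adjusted p of 0.0836. With 1 library left out, its genotype has 1 library, assumed to vary like the other genotype's. With 2 against 2 libraries, the smallest p of an exact permutation test is 0.333. A gate of 5 gave no early nephron or loop value, 1000 genes no loop value and the low class no early nephron value.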
